A study of Mus musculus with 12 samples.

Results

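A set of 10 genes was followed that supply peptides to major histocompatibility complex (MHC) class I molecules. They were chosen by gene symbol (Tap1, Tap2, Tapbp, Tapbpl, Psmb8, Psmb9, Psmb10, Psme1, Psme2 and Erap1). All 10 were found among the 55421 Ensembl genes of the count table, each in 1 row. All 10 passed the filter on low counts, Psmb8 and Psmb9 only through the libraries in which they were high. The RNA was that of MOC2, a cell line from a mouse squamous carcinoma of the mouth. The series asks how extracellular vesicles (EVs, membrane particles shed by cells) from senescent tumour cells shape the signals around those cells. A derivative named MOC2-25 was labelled EV-Proficient, and a derivative named MOC2-27 was labelled EV-Deficient, with vesicle release blocked by a genetic change that the labels do not name. Each was sampled as a DMSO control and after 48 h with 600 nM paclitaxel, which stabilises microtubules and was given to make the cells senescent. That made 4 groups of 3 libraries. Each EV label stands for 1 derivative, so EV status and derivative cannot be told apart. The labels number the replicates but do not say whether they were separate cultures, so p-values measure the spread between these libraries, which may be technical.

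Proteasomes cut cytosolic proteins into peptides. Interferons induce 3 replacement catalytic subunits, encoded by Psmb8, Psmb9 and Psmb10, which take the places of those encoded by Psmb5, Psmb6 and Psmb7 and form the immunoproteasome. Psme1 and Psme2 encode the subunits of the PA28 activator, which caps the proteasome. Tap1 and Tap2 encode the partner subunits of the transporter that moves peptides into the endoplasmic reticulum (ER), where tapasin (Tapbp) and the tapasin-related protein TAPBPR (Tapbpl) help load and edit the peptides and the aminopeptidase ERAP1 trims them.

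Library totals ran from 23263472 counts (paclitaxel replicate 3 of the EV-proficient label) to 62955757. Levels are given as CPM, read counts scaled to a common library size. A count of 3 in a library corresponded to 0.0477 to 0.129 CPM on unscaled totals. The table has a row named dngfr, added by the authors, and the labels do not say what it marks. Its mean was 8.99 CPM ± 3.23 (SD, n = 3) in EV-proficient and 2.15 CPM ± 0.35 (SD, n = 3) in EV-deficient DMSO libraries. Under paclitaxel the order was the opposite, 3.24 CPM ± 0.68 (SD, n = 3) against 10.9 CPM ± 1.4 (SD, n = 3). Libraries are therefore called by their labels throughout, and an effect averaged over both EV labels, which does not depend on which EV label a paclitaxel group carries, is given beside each member's paclitaxel effect. Differences between the EV labels have no such average. The difference between the paclitaxel effects of the labels is given also with each paclitaxel group set against the DMSO libraries of the other label, a setting added after seeing the data and called the other baseline below. The squamous cell label was checked against 9 epithelial genes. Their summed level was 6539 to 7017 CPM in the DMSO and 4303 to 4876 CPM in the paclitaxel libraries, while Krt5 and Trp63, which mark basal squamous cells, were under 1 CPM in all 4 groups. The sum hides larger changes of single genes among the 7 tested. Their log2 fold changes under paclitaxel ran from -1.44 to 1 (EV-proficient) and from -6.98 to 0.29 (EV-deficient). Between the labels under DMSO they ran from -0.51 to 2.92. The 11 leukocyte genes summed to 11.2 to 12.01 CPM (EV-proficient DMSO), 21.1 to 24.0 CPM (EV-proficient paclitaxel), 18.8 to 21.1 CPM (EV-deficient DMSO) and 21.2 to 21.7 CPM (EV-deficient paclitaxel). Most of this was Csf1r and Flt3. The lymphocyte genes Cd3e, Cd8a, Ms4a1 and Nkg7 had at most 2 counts in any library. The 6 endothelial and fibroblast genes summed to 3.35 to 4.50 CPM in the DMSO and 6.84 to 9.47 CPM in the paclitaxel libraries. The mitochondrial share of counts was 0.653% ± 0.090 and 0.644% ± 0.076 under DMSO and 0.878% ± 0.031 and 1.27% ± 0.19 under paclitaxel (EV-proficient and EV-deficient, SD, n = 3). The part of the marker genes and of the mitochondrial share in the results below was not tested.

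Of the 10 genes, 5 lie on chromosome 17 (GRCm38, GENCODE annotation). Psmb9 (chr17:34181987-34187764, minus strand), Tap1 (chr17:34187553-34197225, plus), Psmb8 (chr17:34197721-34201454, plus) and Tap2 (chr17:34203527-34216321, plus) follow one another in the MHC, and Tapbp is at chr17:33915899-33929292. The annotated gene bodies of Tap1 and Psmb9 overlap by 212 bases on opposite strands. Promoter windows of 300 bases, from 250 before to 50 after the start, were taken from RefSeq (GRCm38.p6), which held 8 of the 10 genes. The RefSeq starts of Tap1 and Psmb9 lie 226 bases apart, and their windows share 275 bases. The search covered 4 letter patterns on both strands. The core of the interferon-stimulated response element (ISRE), the DNA element bound by interferon-activated factors, was found in the windows of Erap1 and Psme1, and in 3.44% of all 32851 RefSeq promoters. In Erap1 it runs from -4 to 6 around the start, and in Psme1 from 10 to 19. The gamma-activated site (GAS) pattern TTCNNNGAA was found in Psmb8 (-97 to -89) and in 8.3% of all promoters. The windows of Erap1, Psme1 and Psmb8 lie inside the GENCODE gene bodies, so these positions hold for the RefSeq starts only. The NF-kB pattern was in no member's window and in 0.411% of all promoters, and the GC box GGGCGG was in 6 of the 8 members and 35.7% of all promoters. For Tap1 and Psmb9 the GC box is the same site, within the bases that their windows share, so it is counted for both. The windows that hold an ISRE or GAS pattern, and that shared by the Tap1 and Psmb9 starts, are printed 5′ to 3′ on the strand of the named gene. Capitals mark the ISRE core read on the opposite strand (Erap1, Psme1), the GAS pattern (Psmb8) and the GC box read on the opposite strand (Tap1).
Tap1 (chr17:34187306-34187605, plus): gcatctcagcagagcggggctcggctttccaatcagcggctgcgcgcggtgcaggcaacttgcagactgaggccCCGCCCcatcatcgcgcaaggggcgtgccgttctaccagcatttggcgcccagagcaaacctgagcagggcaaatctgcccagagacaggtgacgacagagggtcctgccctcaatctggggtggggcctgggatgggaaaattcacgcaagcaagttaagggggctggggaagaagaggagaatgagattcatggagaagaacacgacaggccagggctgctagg
Psmb8 (chr17:34197945-34198244, plus): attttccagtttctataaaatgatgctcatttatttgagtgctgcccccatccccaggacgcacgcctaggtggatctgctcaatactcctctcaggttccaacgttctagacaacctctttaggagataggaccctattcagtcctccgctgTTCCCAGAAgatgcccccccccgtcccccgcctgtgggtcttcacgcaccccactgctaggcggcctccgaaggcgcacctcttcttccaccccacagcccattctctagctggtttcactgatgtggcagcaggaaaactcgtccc
Psme1 (chr14:55578244-55578543, plus): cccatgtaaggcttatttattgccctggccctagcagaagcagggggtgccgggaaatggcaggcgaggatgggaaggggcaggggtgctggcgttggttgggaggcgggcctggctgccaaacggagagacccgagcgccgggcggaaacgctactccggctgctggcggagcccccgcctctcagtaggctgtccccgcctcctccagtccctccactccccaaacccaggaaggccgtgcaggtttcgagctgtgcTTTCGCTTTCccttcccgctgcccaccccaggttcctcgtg
Erap1 (chr13:74639603-74639902, plus): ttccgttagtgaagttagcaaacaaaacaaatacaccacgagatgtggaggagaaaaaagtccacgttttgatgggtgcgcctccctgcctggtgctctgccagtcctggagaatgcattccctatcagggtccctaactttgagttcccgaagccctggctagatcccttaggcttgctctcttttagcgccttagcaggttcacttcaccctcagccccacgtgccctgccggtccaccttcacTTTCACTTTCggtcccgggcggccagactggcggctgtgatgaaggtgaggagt
A match describes these letters only and is not a measured binding site.

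Under paclitaxel, most of the 10 genes rose in both EV labels. The immunoproteasome subunits Psmb8 and Psmb9 and the transporter genes Tap1 and Tap2, all barely detected under DMSO, had the largest fold changes of the 10. Psmb8 and Psmb9 passed the low-count filter only through the paclitaxel libraries, so their calls as higher are not independent of that filter. Tapbp, Psme1 and Psme2, already well expressed, rose less. Tapbpl and Psmb10 were not called higher in either label, except Psmb10 in the EV-deficient label with upper-quartile scaling and 2 other settings. By edgeR's quasi-likelihood test (adjusted p under 0.05), 7 of the 10 were higher and 1 lower under paclitaxel in the libraries labelled EV-proficient, where 58.2% of the 18108 tested genes were called (31.1% higher, 27.1% lower). In those labelled EV-deficient, 8 were higher and 1 lower, against 62.9% of all genes (32.4% higher, 30.5% lower). The groups did not overlap for 8 genes upward and 1 downward in the EV-proficient label (33.1% and 29.2% of all genes) and for 8 and 1 in the EV-deficient label (35.2% and 33.5%). The median log2 fold change of the 10 was 0.81 and 1.34, against 0.05 and 0.07 over all tested genes. Upper-quartile scaling moved the all-gene median up by 0.18 in the EV-deficient label, and the share of higher genes among the calls from 51.5% to 63.4%. Relative to the all-gene median, that of the 10 was 1.26 with either scaling. A change of scaling moves all genes by about the same amount, so this relative value could not differ between them. Averaged over both EV labels, 8 were higher and 2 lower (Tapbpl and Psmb10), against 68.4% of all genes (37.1% higher, 31.3% lower), and with upper-quartile scaling 8 were higher and 0 lower.

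**Figure D1:**
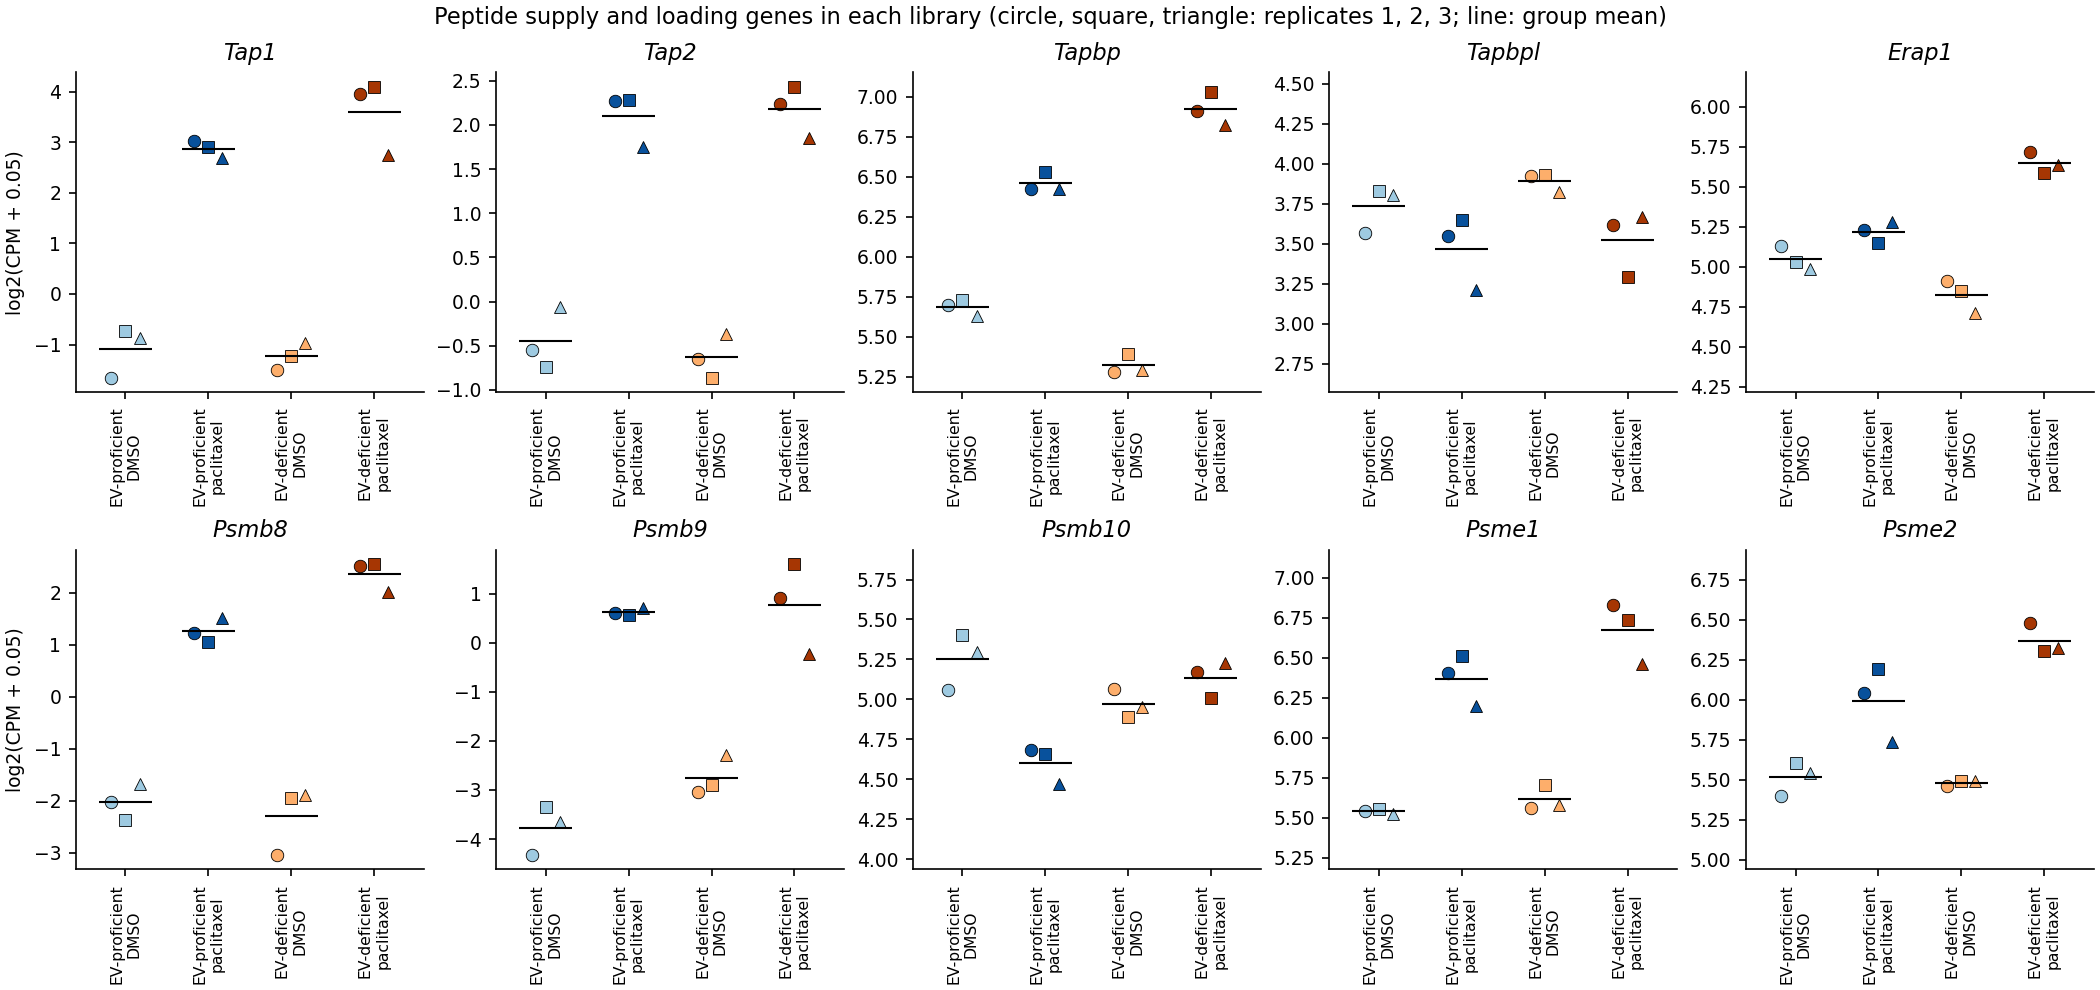
Level of each of the 10 genes in each library, as log2(CPM + 0.05) on the vertical axis, by group on the horizontal axis. Symbols stand for replicates and lines for group means. Tap1, Tap2, Psmb8 and Psmb9 lie far higher in the 6 paclitaxel libraries than in the 6 DMSO libraries, while Psmb10 is lowest in the EV-proficient paclitaxel libraries.

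Tap1, which encodes a subunit of the peptide transporter, was at 0.268, 0.550 and 0.498 CPM in the EV-proficient DMSO libraries and at 8.10, 7.47 and 6.39 CPM under paclitaxel. The EV-deficient libraries had 0.303, 0.375 and 0.461 CPM under DMSO and 15.4, 17.04 and 6.64 CPM under paclitaxel. All 6 paclitaxel libraries lay above all 6 DMSO libraries, and within the EV-deficient paclitaxel group replicate 3 was well below the other two. The log2 fold change was 4.07 ± 0.33 (SE) in the EV-proficient label (edgeR adjusted p = 9.11e-10) and 5.10 ± 0.32 (SE) in the EV-deficient label (edgeR adjusted p = 1.29e-11), and the mean of both was 4.58 ± 0.23 (SE).

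Tap2, which encodes the partner subunit, was at 0.633, 0.550 and 0.907 CPM in the EV-proficient DMSO libraries and at 4.76, 4.82 and 3.32 CPM under paclitaxel. The EV-deficient ones had 0.589, 0.500 and 0.724 CPM under DMSO and 4.68, 5.34 and 3.56 CPM under paclitaxel. The paclitaxel and DMSO libraries did not overlap, and both paclitaxel groups spanned nearly the same range. Its log2 fold changes were 2.65 ± 0.26 (SE, edgeR adjusted p = 1.34e-08) and 2.90 ± 0.25 (SE, edgeR adjusted p = 1.79e-09), with a mean of 2.77 ± 0.18 (SE). In reads per kilobase of transcript, Tap1 lay above Tap2 in every paclitaxel library, while the DMSO libraries, with 11 to 33 counts of each, had the opposite order in 5 of 6. Tap1 was at 0.149 ± 0.051 and Tap2 at 0.203 ± 0.054 CPM per kb in EV-proficient DMSO libraries, and at 2.48 ± 0.29 and 1.25 ± 0.25 CPM per kb under paclitaxel (SD, n = 3). The SDs of the DMSO means overlap, and in EV-proficient DMSO replicate 2 Tap1 (0.186 CPM per kb) was above Tap2 (0.160 CPM per kb). The log2 ratio of Tap1 to Tap2 counts was 1.78 higher under paclitaxel (exact permutation of treatment within EV label, two-sided p = 0.005, the smallest that its 400 arrangements allow, and 0.00833 adjusted over the 5 ratios tested), and higher than in every DMSO library in 6 of 6 paclitaxel libraries.

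Tapbp encodes tapasin, which bridges the transporter and the empty class I molecule. It was at 52.0, 53.0 and 49.5 CPM in EV-proficient DMSO libraries and at 85.8, 92.4 and 85.8 CPM under paclitaxel. Levels in the EV-deficient label were 38.7, 42.0 and 39.2 CPM under DMSO and 120.4, 130.6 and 113.1 CPM under paclitaxel. The 4 groups did not overlap, with the EV-deficient label lowest under DMSO and highest under paclitaxel. The log2 fold change was 0.77 ± 0.07 (SE, edgeR adjusted p = 2.68e-09) in the EV-proficient and 1.602 ± 0.068 (SE, edgeR adjusted p = 3.8e-14) in the EV-deficient label, and the mean of both was 1.19 ± 0.05 (SE). With the other baseline the effects were nearly equal, 1.14 in the EV-proficient and 1.235 in the EV-deficient paclitaxel libraries. Tapbp overlaps Zbtb22 on the same strand, and Zbtb22 was at 25.3 and 27.3 CPM under DMSO and 23.2 and 17.3 CPM under paclitaxel (group means, EV-proficient and EV-deficient). Its part in the Tapbp values was not tested.

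Tapbpl, whose product edits the peptides of class I molecules outside the loading complex, was at 11.8, 14.2 and 13.9 CPM in EV-proficient DMSO and 11.6, 12.5 and 9.22 CPM in EV-proficient paclitaxel libraries. The EV-deficient libraries had 15.1, 15.2 and 14.1 CPM under DMSO and 12.2, 9.73 and 12.7 CPM under paclitaxel. The groups overlapped in the EV-proficient label and did not in the EV-deficient label. The log2 fold change was -0.25 ± 0.13 (SE, edgeR adjusted p = 0.0997) in the former and -0.36 ± 0.12 (SE, edgeR adjusted p = 0.0146) in the latter, where the call was lost with upper-quartile scaling (-0.17) and without paclitaxel replicate 2 (-0.25). With the other baseline the call moved from the EV-deficient (-0.20, edgeR adjusted p = 0.166) to the EV-proficient paclitaxel libraries (-0.40, edgeR adjusted p = 0.00847), and the mean over both labels was -0.30 ± 0.09 (SE, edgeR adjusted p = 0.00436), a call lost with upper-quartile scaling (-0.18, edgeR adjusted p = 0.0738). Tapbpl lies within Vamp1 on the opposite strand, and whether counting used strand is not given in the sources used here. Vamp1 was at 4.07 and 5.09 CPM under DMSO and at 14.2 and 11.6 CPM under paclitaxel (group means, EV-proficient and EV-deficient).

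Erap1, the ER aminopeptidase that trims peptides to length, was at 35.01, 32.6 and 31.6 CPM in EV-proficient DMSO libraries and 37.4, 35.5 and 38.9 CPM under paclitaxel. It was at 30.1, 28.8 and 26.2 CPM in EV-deficient DMSO libraries and 52.7, 48.1 and 49.7 CPM under paclitaxel. The groups did not overlap in either label, by a narrow margin in the EV-proficient label. The log2 fold change was 0.17 ± 0.08 (SE, edgeR adjusted p = 0.0609) in the EV-proficient label, which did not pass, and 0.82 ± 0.07 (SE, edgeR adjusted p = 3.34e-09) in the EV-deficient label. In the EV-proficient label, Erap1 passed in 4 of 16 other settings, among them the other baseline (0.39, edgeR adjusted p = 0.000134), which gave 0.60 in the EV-deficient paclitaxel libraries. The mean over both labels was 0.50 ± 0.05 (SE). Erap1 overlaps Cast, which encodes the protease inhibitor calpastatin, by 834 bases on the opposite strand. Cast was more abundant, at 346.5 and 275.0 CPM under DMSO and 294.2 and 324.4 CPM under paclitaxel (group means, EV-proficient and EV-deficient), so between the labels its means had the same order as those of Erap1, and its part in the Erap1 values was not tested.

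Psmb8 encodes the immunoproteasome subunit β5i, with chymotrypsin-like activity. It had 8, 6 and 9 counts in EV-proficient DMSO libraries and 116, 115 and 69 counts under paclitaxel, or 0.195, 0.144 and 0.263 CPM and 2.29, 2.02 and 2.79 CPM. For the EV-deficient label there were 4, 10 and 10 counts (0.0714, 0.209 and 0.219 CPM) under DMSO and 306, 269 and 244 counts (5.70, 5.82 and 4.003 CPM) under paclitaxel. The paclitaxel groups lay above all DMSO libraries and did not overlap each other. The log2 fold change was 3.55 ± 0.34 (SE, edgeR adjusted p = 1.25e-08) in the EV-proficient and 4.97 ± 0.33 (SE, edgeR adjusted p = 3.05e-11) in the EV-deficient label, with a mean of 4.26 ± 0.24 (SE).

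Psmb9 encodes the subunit β1i. It had 0, 2 and 1 counts in the EV-proficient DMSO libraries and 74, 81 and 39 counts under paclitaxel (1.46, 1.42 and 1.58 CPM). The EV-deficient libraries held 4, 4 and 7 counts under DMSO (0.0714, 0.0834 and 0.154 CPM) and 98, 138 and 49 counts under paclitaxel (1.83, 2.99 and 0.804 CPM). Every paclitaxel library lay above every DMSO library, and EV-deficient paclitaxel replicate 3 was again the lowest of its group, as for Tap1. With 3 counts in all against 194, the ratio in the EV-proficient label was 57.2 (95% interval 19.3 to 279.9, for counting error only). For the EV-deficient label, 15 counts against 285 gave 17.7 (95% interval 10.5 to 31.99). Both changes passed (edgeR adjusted p = 2.1e-07 and 3.43e-07). The fitted mean over both labels, which rests on these few DMSO counts, was 4.94 ± 0.42 (SE) on the log2 scale. Named by the labels of the paclitaxel libraries, fitted effects were 5.71 (EV-proficient) and 4.17 (EV-deficient) as deposited, and 3.84 and 6.04 with the other baseline. By EV label, this order turns only if the DMSO labels were the ones exchanged. With exchanged paclitaxel labels it stays as deposited.

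Psmb10, which encodes the subunit β2i, differed from the other immunoproteasome subunits in both level and direction. It was at 33.4, 42.3 and 39.3 CPM in EV-proficient DMSO libraries and 25.7, 25.2 and 22.1 CPM under paclitaxel. In the EV-deficient label it was at 33.4, 29.7 and 31.0 CPM under DMSO and 36.0, 32.1 and 37.5 CPM under paclitaxel. The EV-proficient paclitaxel libraries lay below every other library, and the EV-deficient groups overlapped. Psmb10 fell in the EV-proficient label (log2 fold change -0.65 ± 0.09 SE, edgeR adjusted p = 3.61e-06) and did not pass in the EV-deficient label (0.17 ± 0.09 SE, edgeR adjusted p = 0.116). In the EV-deficient label, 3 of 16 other settings called it higher, upper-quartile scaling among them (0.35). With the other baseline both values were below 0, -0.36 in the EV-proficient (edgeR adjusted p = 0.00221) and -0.12 in the EV-deficient paclitaxel libraries (edgeR adjusted p = 0.259). The mean over both labels was -0.24 ± 0.07 (SE, edgeR adjusted p = 0.00249), a call lost with upper-quartile scaling (-0.12, edgeR adjusted p = 0.102). Per kilobase of transcript, Psmb10 was at 29.2 ± 3.5 CPM per kb in EV-proficient DMSO libraries, against 0.123 ± 0.037 for Psmb8 and 0.0190 ± 0.0179 for Psmb9 (SD, n = 3).

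Psme1 encodes PA28α. It was at 46.6, 46.9 and 46.0 CPM in EV-proficient DMSO libraries and 84.6, 91.2 and 73.4 CPM under paclitaxel. EV-deficient libraries had 47.1, 52.1 and 47.9 CPM under DMSO and 113.8, 106.7 and 88.1 CPM under paclitaxel. No paclitaxel library overlapped the DMSO libraries. The log2 fold change was 0.84 ± 0.09 (SE, edgeR adjusted p = 4.18e-08) in the EV-proficient and 1.07 ± 0.09 (SE, edgeR adjusted p = 6.35e-10) in the EV-deficient label, with a mean of 0.95 ± 0.06 (SE). Psme1 overlaps Emc9 by 14 bases on the opposite strand, and Emc9 was at 1.67 and 1.62 CPM under DMSO and 4.14 and 4.595 CPM under paclitaxel (group means, EV-proficient and EV-deficient).

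Psme2 encodes the partner subunit PA28β. It was at 42.1, 48.7 and 46.6 CPM in EV-proficient DMSO libraries and 65.8, 73.2 and 53.2 CPM under paclitaxel, and at 44.0, 44.9 and 44.9 CPM and 89.3, 79.0 and 80.1 CPM in the EV-deficient label. Again the drug-treated libraries lay above all controls, and EV-proficient paclitaxel replicate 3 was the lowest of them. Its log2 fold changes were 0.49 ± 0.09 (SE, edgeR adjusted p = 8.18e-05) and 0.89 ± 0.09 (SE, edgeR adjusted p = 1.66e-08), and their mean was 0.69 ± 0.06 (SE). Psme2 has a near-identical copy, Psme2b, whose counts were 2.79% to 4.78% of those of Psme2, and reads can be split between them in a way the counts do not show. The log2 ratio of Psme1 to Psme2 counts was 0.26 higher under paclitaxel (exact permutation within EV label, two-sided p = 0.01, 0.0125 adjusted over 5 ratios). In the EV-deficient label its ranges overlapped, from 0.09 to 0.21 under DMSO and from 0.14 to 0.43 under paclitaxel.

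**Figure D2:**
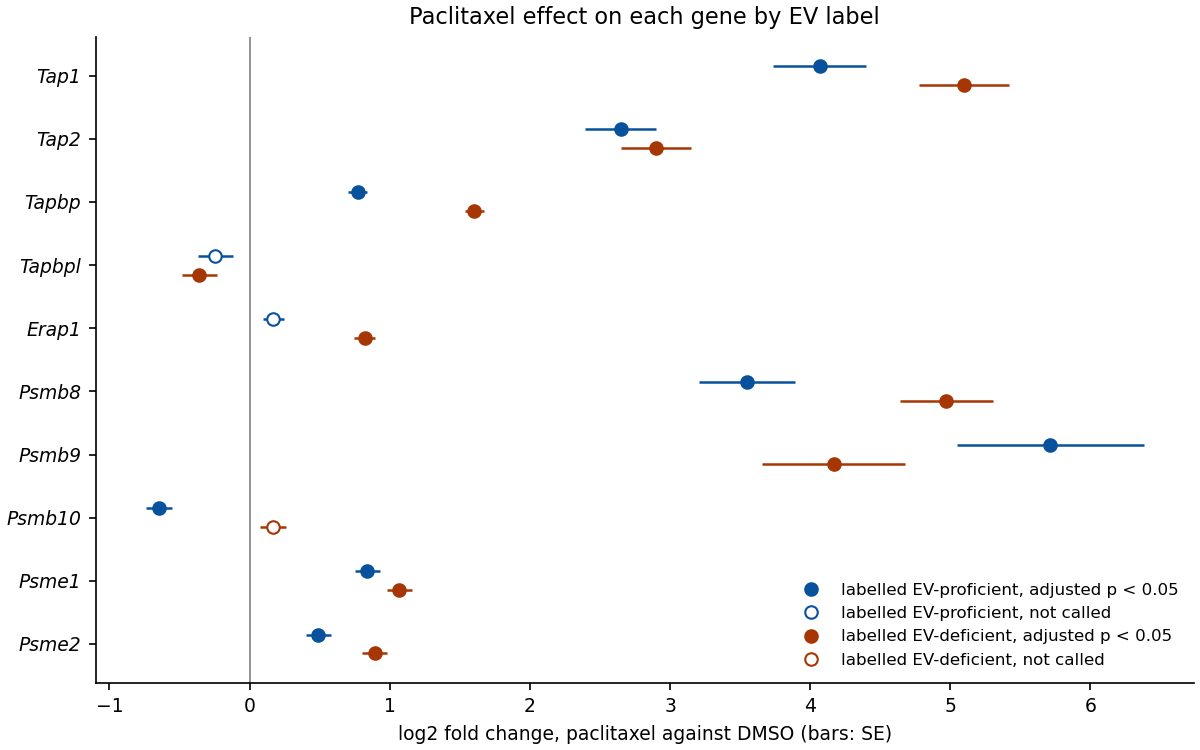
Log2 fold change of paclitaxel against DMSO (horizontal axis, bars are SE) for each gene, in blue for libraries labelled EV-proficient and in brown for those labelled EV-deficient. Filled points passed the edgeR test and open points did not. Tap1 (4.07 and 5.10), Psmb8 (3.55 and 4.97) and Psmb9 lie far to the right, and only Psmb10 lies on opposite sides of 0 in the 2 labels as deposited (with the other baseline it is at -0.36 and -0.12).

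The subunits that the immunoproteasome replaces fell. Their direction was opposite to that of Psmb8 and Psmb9 in both labels, while Psmb7 and its replacement Psmb10 both fell in the EV-proficient label. Psmb5, Psmb6 and Psmb7, the constitutive catalytic subunits, were all lower under paclitaxel in both labels, with log2 fold changes of -0.36, -0.28 and -0.43 in the EV-proficient and -1.34, -1.05 and -0.84 in the EV-deficient label. Psmb6 was at 273.1 CPM ± 19.1 and 225.2 CPM ± 19.3 in EV-proficient DMSO and paclitaxel libraries and at 339.9 CPM ± 15.2 and 164.6 CPM ± 6.5 in the EV-deficient ones (SD, n = 3). As a share of the reads per kilobase of its pair, Psmb8 was 0.152% ± 0.051 of Psmb8 plus Psmb5 in EV-proficient DMSO libraries and 2.28% ± 0.59 under paclitaxel (SD, n = 3). The share was 0.102% ± 0.052 and 7.60% ± 2.24 in the EV-deficient DMSO and paclitaxel libraries (SD, n = 3). The Psmb9 share of Psmb9 plus Psmb6 stayed below that of Psmb8, at 0.391% ± 0.051 and 0.676% ± 0.413 under paclitaxel in the EV-proficient and EV-deficient libraries (SD, n = 3). The Psmb10 share of Psmb10 plus Psmb7 was 25.7% ± 1.9 and 22.9% ± 0.7 in EV-proficient DMSO and paclitaxel libraries, and 20.9% ± 0.9 and 34.6% ± 1.5 in the EV-deficient ones (SD, n = 3). With this length, that of the longest protein-coding transcript, the constitutive subunit held most of the reads of each pair in every group. With all annotated exons merged, the Psmb8 share under paclitaxel was 1.11% and 3.82%, and the Psmb10 share 40.2% and 54.6%.

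The log2 ratio of Psmb8 to Psmb5 counts was 5.11 higher under paclitaxel and that of Psmb9 to Psmb6 was 5.41 higher (exact permutation within EV label, two-sided p = 0.005 each, 0.00833 adjusted over 5 ratios). With 5 in place of 0.5 added to the counts, these differences were 4.50 and 3.92. For both ratios every paclitaxel library lay above every DMSO library. The ratio of Psmb10 to Psmb7 was 0.40 higher on average and did not pass (exact permutation, two-sided p = 0.1, adjusted 0.1). By the labels as deposited, its groups moved in opposite directions, from -1.36 ± 0.14 to -1.58 ± 0.06 in the EV-proficient and from -1.75 ± 0.08 to -0.74 ± 0.10 in the EV-deficient label (SD, n = 3). Set against the DMSO libraries of the other label, both paclitaxel groups lay higher, -1.58 against -1.75 and -0.74 against -1.36.

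**Figure D3:**
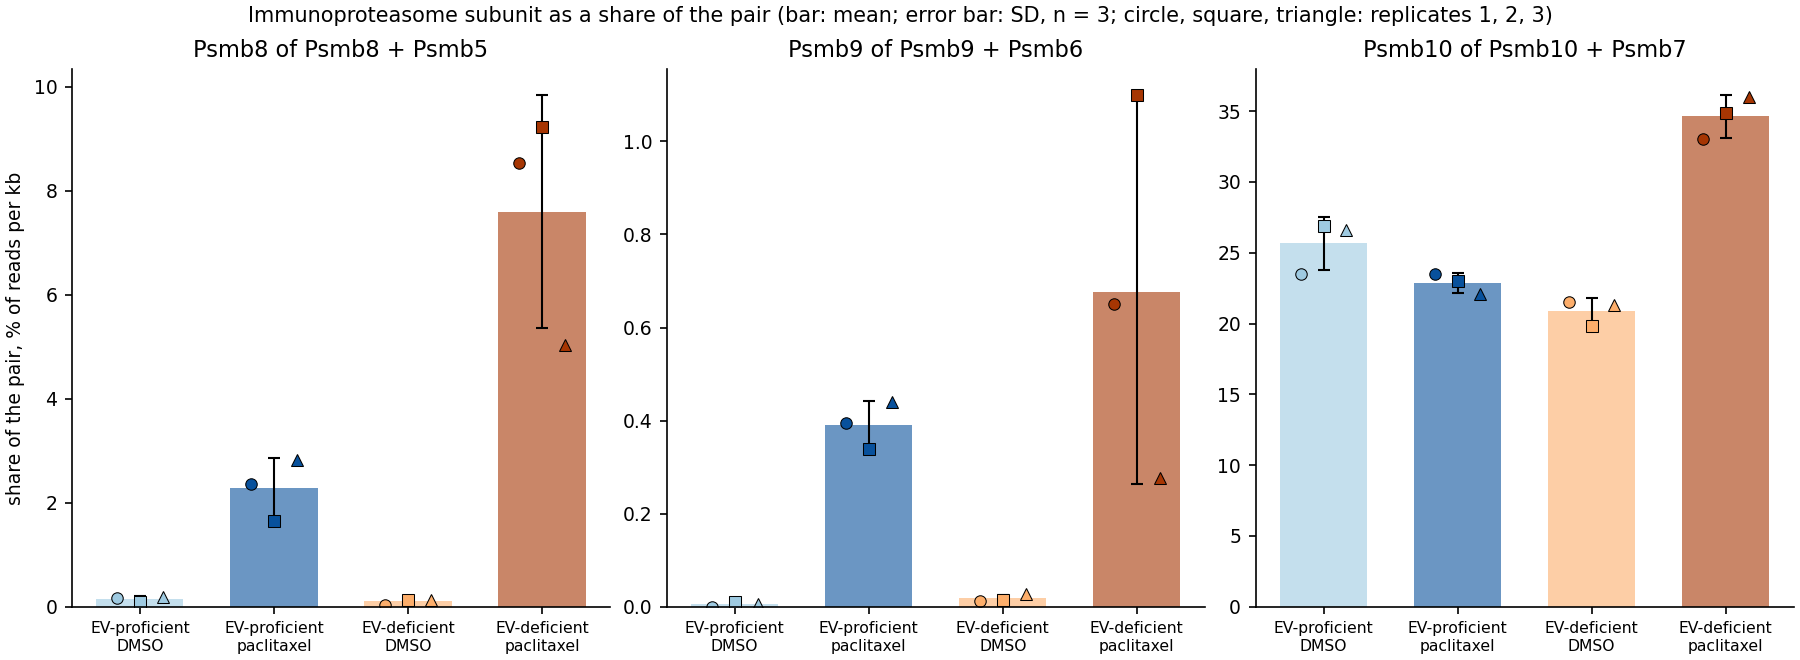
Share of each immunoproteasome subunit in the reads per kilobase of its pair (vertical axis, %, a separate scale in each panel), by group. Bars are means, error bars SD (n = 3) and symbols replicates. The Psmb8 share reaches 7.60% on average in the EV-deficient paclitaxel libraries, and the Psmb10 share is highest there at 34.6%.

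The other genes of the route were described by lists, which were chosen with results of these data known. The counts called in each list stand against 31.1% of all tested genes called higher and 27.1% called lower in the EV-proficient label, and 32.4% and 30.5% in the EV-deficient label. Most of the rest of the proteasome was lower under paclitaxel. Among 11 other 20S core subunits, 9 in the EV-proficient and 11 in the EV-deficient label passed as lower and 0 as higher (medians -0.34 and -0.57), with Psmb3 at -0.55 and -0.90, Psma5 at -0.48 and -0.84, and Psma2 at -0.43 and -0.73. Among 18 subunits of the 19S regulator, which recognises ubiquitin-tagged proteins, 16 and 17 were lower and 0 higher (medians -0.62 and -0.82), with Psmc4 at -0.89 and -1.34, Psmc5 at -0.99 and -1.21, and the ubiquitin receptor Adrm1 at -0.83 and -1.21. Of 8 other activators, inhibitors and assembly factors, 5 were lower in each label, and 1 was higher in the EV-proficient label. Psme3, which encodes the nuclear activator PA28γ, a relative of the Psme1 and Psme2 products, fell in both (-0.94 and -0.88). Each of these medians remained below 0 with upper-quartile scaling.

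The ER chaperones that work beside tapasin also fell, 5 of 5 in the EV-proficient and 4 of 5 in the EV-deficient label (medians -0.62 and -0.41). Calr, the chaperone calreticulin, was at -1.28 and -0.99. The ER chaperone Hspa5 was at -0.67 and -0.55, the calnexin gene Canx at -0.62 and -0.41, and Pdia3, the partner of tapasin in the loading complex, at -0.60 and -0.25. Of 6 other peptidases, 3 were lower in the EV-proficient label, and 4 were lower and 2 higher in the EV-deficient label, where 30.5% of all genes were called lower. Thop1, which degrades cytosolic peptides, was at -0.57 and -1.70, and Lnpep, an endosomal relative of Erap1, at -0.01 (not passed) and 0.80.

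Class I partners and genes of the interferon route were more often higher than lower. Of 4 MHC class I partners, 2 were higher in the EV-proficient and 4 in the EV-deficient label, and 0 lower, against 31.1% and 32.4% of all genes called higher. Nlrc5, the transactivator of class I genes, was at 2.59 and 3.00, and B2m, the class I light chain, at 0.87 and 1.88. H2-D1, a class I heavy chain whose reads can be shared with related genes, was at 0.04 (edgeR adjusted p = 0.582) and 0.69 (edgeR adjusted p = 1.62e-09). Of 19 interferon receptors, signal carriers and regulators, 14 were higher and 2 lower in the EV-proficient label, and 13 higher and 3 lower in the EV-deficient label, against 31.1% higher and 27.1% lower, and 32.4% and 30.5%, over all genes. Stat2, a signal carrier of type I interferons, was at 0.89 and 2.64, and its DNA-binding partner Irf9 at 1.34 and 2.23. Irf1, a regulator of antigen presentation genes, was at 0.60 and 1.13. The interferon genes Ifnb1, Ifng, Ifne, Ifnl2 and Ifnl3 had at most 15 counts in any library and none passed the filter. Without the third paclitaxel library of each label, a setting added after seeing the data, the interferon list gave 13 higher in each label, and the 10 members gave 7 and 8 higher.

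**Figure D4:**
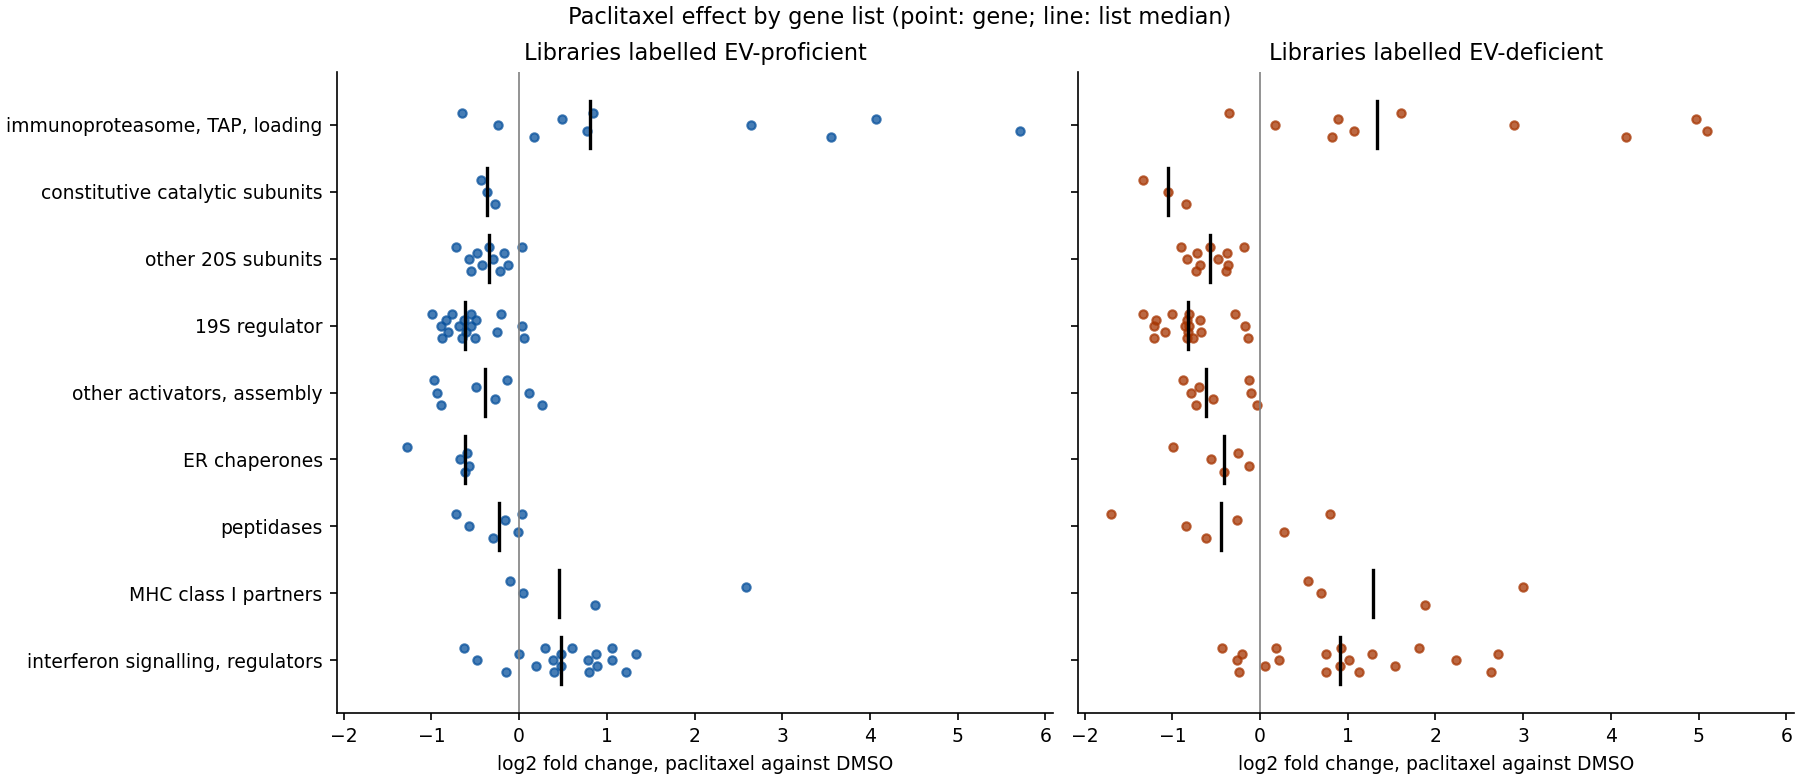
Log2 fold change of paclitaxel against DMSO (horizontal axis) for each gene of each list, in libraries labelled EV-proficient (left) and EV-deficient (right). Points are genes and black lines list medians. The medians of the 10 members (0.81 and 1.34), the class I partners and the interferon list lie to the right of 0, and those of the proteasome lists and the ER chaperones to the left.

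Differences between the EV labels are given by the labels as deposited, which the dngfr row puts in doubt. If the labels of the paclitaxel libraries were exchanged, each difference under paclitaxel would change its sign, and Tapbp, Psmb10 and Erap1 would be lower in the EV-deficient label under both treatments. If those of the DMSO libraries were exchanged instead, each difference under DMSO would change its sign. Tapbp, Psmb10 and Erap1 would then be higher in the EV-deficient label under both treatments. Under DMSO, 3 of the 10 genes were lower in the libraries labelled EV-deficient and 0 were higher, against 23.0% of all genes called (12.4% higher, 10.6% lower). Tapbp was lower by a log2 fold change of -0.37 ± 0.07 (SE, edgeR adjusted p = 0.000351), with no overlap. Psmb10 was at -0.29 ± 0.09 (SE, edgeR adjusted p = 0.0259), with overlapping groups, and Erap1 at -0.22 ± 0.08 (SE, edgeR adjusted p = 0.0362), with groups that did not overlap. The Psmb10 call was lost without any 1 of 4 libraries and the Erap1 call without any 1 of 5, so that without replicate 2 or 3 of either DMSO group only 1 gene, Tapbp, was called. Groups did not overlap for 2 genes downward and, without passing the test, for 2 upward (Psmb9 and Psme1), against 18.5% and 24.8% of all genes. The median of the 10 was -0.20.

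Under paclitaxel, 7 of the 10 were higher in the libraries labelled EV-deficient and 0 were lower, against 37.8% of all genes called (16.0% higher, 21.8% lower; with upper-quartile scaling the higher share of the calls went from 42.4% to 58.2%). Psmb8 had the largest difference, 1.14 ± 0.25 (SE, edgeR adjusted p = 0.00113). Tapbp (0.46 ± 0.07), Psmb10 (0.53 ± 0.09), Erap1 (0.43 ± 0.07) and Psme2 (0.36 ± 0.09) also passed with groups that did not overlap, which makes 5 genes upward and 0 downward (19.9% and 24.1% of all genes). Tap1 (0.82 ± 0.24, edgeR adjusted p = 0.01) and Psme1 (0.31 ± 0.09, edgeR adjusted p = 0.00749) passed with overlapping groups. The Tap1 call was lost with DESeq2 (adjusted p = 0.0536), with limma-voom (adjusted p = 0.0557), and without EV-deficient paclitaxel replicate 1 (0.67) or 2 (0.59). That of Psme1 was lost without EV-proficient paclitaxel replicate 3 (0.22) or EV-deficient paclitaxel replicate 1 (0.22). Tap2 (0.06 ± 0.22), Tapbpl (0.04 ± 0.13) and Psmb9 (0.33 ± 0.40) did not pass. The median of the 10 was 0.40.

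**Figure D5:**
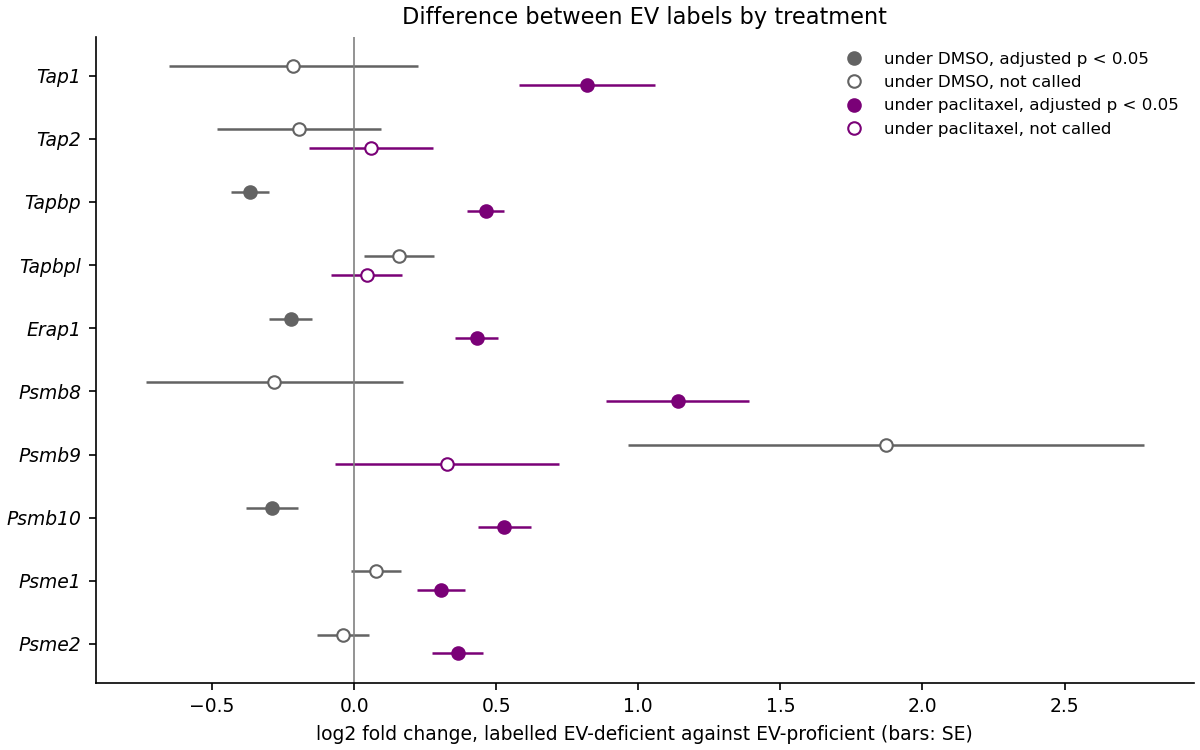
Log2 fold change of libraries labelled EV-deficient against EV-proficient (horizontal axis, bars are SE), in grey under DMSO and in purple under paclitaxel. Filled points passed the edgeR test. Tapbp, Psmb10 and Erap1 lie to the left of 0 under DMSO and to the right under paclitaxel, by the labels as deposited (exchanged paclitaxel labels would mirror the purple points at 0, and exchanged DMSO labels the grey points).

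The difference between the paclitaxel effects of the labels was tested as an interaction. By the labels as deposited, it was larger in the EV-deficient label for 5 of the 10 genes and smaller for 0, against 40.7% of all genes called (16.9% higher, 23.8% lower; the higher share of the calls was 41.4%, and 53.9% with upper-quartile scaling). Those genes were Tapbp (0.83 ± 0.09, edgeR adjusted p = 4.04e-07), Psmb10 (0.82 ± 0.13, edgeR adjusted p = 3e-05), Erap1 (0.65 ± 0.11, edgeR adjusted p = 3.58e-05), Psme2 (0.40 ± 0.13, edgeR adjusted p = 0.0144) and Psmb8 (1.42 ± 0.52, edgeR adjusted p = 0.0346). With the other baseline, edgeR called 0 of the 10 (3 at an unadjusted p under 0.05), limma-voom 0 and DESeq2 1, and edgeR called 9.60% of all genes (3.41% higher, 6.20% lower). There the paclitaxel effects differed by 0.10 ± 0.09 for Tapbp, 0.24 ± 0.13 for Psmb10, 0.21 ± 0.11 for Erap1, 0.33 ± 0.13 for Psme2 and 0.86 ± 0.53 for Psmb8 (SE, edgeR adjusted p from 0.112 to 0.571). The 5 edgeR calls thus hold only for the labels as deposited. By construction, the difference with the other baseline is the sum of the label differences under DMSO and under paclitaxel, so opposite signs cancel in it. It is not a separate test of the interaction. The Psmb8 call was lost in 9 of 21 other settings, among them without EV-deficient DMSO replicate 1 (1.01, edgeR adjusted p = 0.127), and also without EV-proficient DMSO replicate 1 or 3, EV-proficient paclitaxel replicate 2, or EV-deficient paclitaxel replicate 1 or 2. The Psme2 call was lost without EV-proficient DMSO replicate 2 (0.34, edgeR adjusted p = 0.058). Tap1 (1.03 ± 0.50) did not pass (edgeR adjusted p = 0.11), but did without EV-deficient paclitaxel replicate 3 (1.39, edgeR adjusted p = 0.00256). Psme1 (0.23 ± 0.12) likewise did not pass, and did without that library (0.37) or without EV-proficient paclitaxel replicate 2 (0.35). Tap2 (0.25 ± 0.36), Tapbpl (-0.11 ± 0.18) and Psmb9 (-1.55 ± 0.99) did not pass. Named by the labels of the paclitaxel libraries, they were at -0.13 ± 0.36, 0.20 ± 0.18 and 2.20 ± 0.99 (SE) with the other baseline. By EV label, these signs turn only if the DMSO labels were the ones exchanged. With exchanged paclitaxel labels, every difference with the other baseline would change its sign. The Psmb9 value there had an edgeR unadjusted p of 0.0376 and an adjusted p of 0.172, and was the largest of the 10. For Tap1 and Psme1 the other baseline gave 0.60 ± 0.50 and 0.38 ± 0.12 (SE, edgeR adjusted p = 0.492 and 0.0537).

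Genes with the most similar pattern over the 4 group means were found for 4 of the members (Tap1, Psmb8, Psme1 and Erap1), as those with the smallest root mean square difference of centred log2 CPM among genes with a mean of at least 5 CPM. For Tap1 they were Irf7 (0.15), Lgals3bp (0.15) and Ifi27 (0.21). For Psmb8 they were Dhrs3 (0.15), Gbp7 (0.16) and Trim12c (0.17). Psme1 was closest to Frk (0.03), a gene without a symbol in the table (0.04) and Idua (0.04). Erap1, whose profile is flatter, was closest to Nkx2-3 (0.0092), Ccdc112 (0.02) and Pgm2l1 (0.02). Each measure rests on 4 values that share the same libraries.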

How the data were processed

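Polyadenylated RNA from 12 samples was made into stranded libraries, per the labels' protocols. STAR 2.5.0a and the GRCm38 build are named in the submitters' processing notes. The counting program, the annotation release and the use of strand in counting are not given in the sources used here. The file deposited by the authors is 1 table of whole-number counts for each gene, with no normalization. It has 55423 rows, 55421 Ensembl genes (3995 of these have no symbol), and 2 further rows, gfp and dngfr, neither of which entered the library sizes or the tests. Columns were matched to samples by the description in the labels, and groups by title.

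The members, the gene lists and the rule for naming other genes (at most 3 per list, those with the largest change past the threshold in the EV-deficient label, plus a few genes named whatever their values, such as Irf1, Calr and Pdia3) were chosen with earlier results of these data known. Single values of some genes that this rule would name are not reported here. The tests were run with edgeR 4.0.16 (R 4.3.3). The filter filterByExpr (minimum count 10) left 18108 of the 35104 genes that had counts. Library sizes were scaled by TMM (factors 0.89 to 1.15), and a quasi-likelihood model with 1 mean per group was fitted to all 12 libraries. The Benjamini-Hochberg method was applied over all tested genes, and calls were made at 0.05. Fold changes are log2, and SE was taken as their size over the root of the F statistic. The scripts were tested on simulated counts. Ratios used counts plus 0.5. Levels per kilobase used the longest protein-coding transcript in GENCODE. Replicates differed by more than sampling noise in every group. Intervals and the floor of 3 counts hold for counting error alone, because PCR copies cannot be recognised here. Alternatives were other scalings and filters, DESeq2 1.42.0, limma-voom (limma 3.58.1), a block for the replicate number, fits of the compared groups alone, and each library left out. The mean over both EV labels, the other EV label's DMSO libraries as the baseline (also for the interaction), and the fits without paclitaxel replicate 3 of either label were added after seeing the data.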

Additional observations from a re-analysis of the deposited data

Results flagged for a closer look

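The paclitaxel effect differed between EV labels, by the interaction term of edgeR, for 5 of the 10 genes, against 40.7% of all tested genes (16.9% higher). On the log2 scale it was larger in the EV-deficient label by 0.83 for Tapbp (0.829 before rounding to 2 decimals), 1.42 for Psmb8, 0.82 (0.817) for Psmb10, 0.40 (0.403) for Psme2 and 0.65 (0.654) for Erap1. The Psmb8 call was lost in 9 of 21 other settings. For Psmb10 the effects by the labels as deposited had opposite signs, -0.65 and 0.17, and the latter did not pass. With the other label's DMSO libraries as the baseline, 0 of these 5 differences passed with edgeR (0.10, 0.86, 0.24, 0.33 and 0.21 in the same order), and both Psmb10 effects were below 0 (-0.36 and -0.12).

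The added row named dngfr, which no comparison used, held signal in all 4 groups. Its mean was 8.99 CPM in EV-proficient DMSO, 3.24 CPM in EV-proficient paclitaxel, 2.15 CPM in DMSO libraries labelled EV-deficient and 10.9 CPM in their paclitaxel counterparts. The other added row, gfp, had 0 counts in every library. Over all tested genes, the interaction called 9.60% with the other baseline. Whether the EV labels of the paclitaxel libraries match those of the DMSO libraries was not tested beyond these values and the fits with the other label's DMSO libraries as the baseline.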

How the results depend on the processing

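Of 276 values of the member counts and ratios under other settings, 265 were scored as unchanged and 11 as moved. Counts scored as unchanged could still differ somewhat, and ratios only had to keep their sign and call. With 1 library left out, the number with a larger effect in the EV-deficient label ran from 4 to 7. The number higher in that label under paclitaxel ran from 5 to 7. For the 60 values of single members, 957 of 1008 kept their call, 35 lost it, 16 gained it and 0 reversed sign as a call. The number of members lower under paclitaxel in the EV-proficient label, 1 as reported, was 2 with the other label's DMSO libraries as the baseline and 1 to 2 with 1 library left out. In the EV-deficient label it was 1 as reported, 0 with upper-quartile scaling, 0 with the other baseline and 0 to 1 with 1 library left out. The number of members with a larger effect in the EV-deficient label, 5 as reported, was 0 with the other baseline. The mean over both labels gave 2 lower, and 0 with upper-quartile scaling. Under DMSO the number lower in the EV-deficient label was 3, and 1 to 3 with 1 library left out. The number of members higher under paclitaxel was 7 to 8 in the EV-proficient label over all settings. Upper-quartile scaling moved the all-gene median by 0.18 (paclitaxel in the EV-deficient label), 0.12 (interaction) and 0.12 (mean over both labels). Taking replicate numbers as a block kept the counts of members at 7 higher and 1 lower (EV-proficient label), 8 and 1 (EV-deficient label), 0 and 3 (EV labels under DMSO), 7 and 0 (under paclitaxel), and 5 and 0 (interaction). No pairing by number was seen. Of same-numbered pairs, 0 of 18 had deviations that correlated above 0.1 (from -0.0812 to 0.097), and 5 of 12 libraries correlated best with their own number. The labels do not say whether same-numbered libraries were handled together, and these correlations cannot settle it. The ratio of Psmb9 to Psmb6 could not be computed with no value added, since 1 library had 0 counts. The causes of these shifts were not tested. Depth limits Psmb9, Psmb8, Tap1 and Tap2 under DMSO, where libraries held 0 to 33 counts of each.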
